A study of Mus musculus with 6 samples.

Results

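The 10 genes described here encode the 4 ID proteins (Id1, Id2, Id3 and Id4), 5 SMAD factors (Smad1, Smad3, Smad5, Smad6 and Smad7) and the membrane protein BAMBI. They were taken as every probe set of the array that the platform annotation assigns to one of these genes alone, which gave 17 of the 22626 probe sets tested and 10 of the 12393 genes measured. Biotin-labelled cRNA made from total RNA of cultured mouse cells, a line called PPP3R1, was measured on 6 Affymetrix arrays. 3 arrays held RNA of cells starved for 6 h and 3 held RNA of the same line in normal medium, called control below. PPP3R1 is also the symbol of the regulatory subunit of calcineurin, and the labels give no allele, so the state of that gene in the line, which both groups share, remains unknown from the labels. Titles and design text name the line in normal medium as the control, but the growth and treatment protocols name wild-type embryonic fibroblasts (MEFs), and this conflict touches every difference below. Whether the numbered biological replicates came from separate cultures is not stated, and the p-values therefore reflect only the spread among these 6 arrays, which may be technical.

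Bone morphogenetic proteins (BMPs) and TGF-beta bind pairs of serine/threonine kinase receptors, which phosphorylate receptor-regulated SMADs: SMAD1, SMAD5 and SMAD9 for BMPs, SMAD2 and SMAD3 for TGF-beta and activin. These join SMAD4, enter the nucleus and bind DNA, while SMAD6, SMAD7 and BAMBI dampen the signal and are themselves induced by it. The Id genes are among the best-known BMP targets, and in fibroblasts they also respond to serum. ID proteins carry a helix-loop-helix domain but no DNA-binding region, so they pair with E proteins and keep them off DNA, which holds back differentiation and favours division.

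Values are log2 expression as deposited, one per probe set and array, and a change is the starved mean less the control mean on that scale, with its standard error (SE) from limma and n = 3 per group. A probe set was called when its limma p-value, adjusted by Benjamini-Hochberg over all 22626 probe sets, was below 0.05. Of the 17 probe sets, 10 were lower in starved cells and 0 were higher, beside 19.2% called lower and 20.3% called higher (39.5% in all) among all probe sets. With each gene represented by its brightest probe set, 7 of 10 genes were lower (Id1, Id2, Id3, Smad1, Smad6, Smad7 and Bambi) and 0 were higher, beside 20.1% and 20.8% (40.8% in all) of all genes. The median change of the 10 genes was -0.39, and that of all genes was -0.01. Id4, Smad3 and Smad5 did not pass. Smad6 passed only narrowly (limma adjusted p = 0.0498) and lost its call under 10 of 15 alternative settings. These are bulk cultures, so fewer cells of a type and less RNA per cell cannot be told apart.

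**Figure D1:**
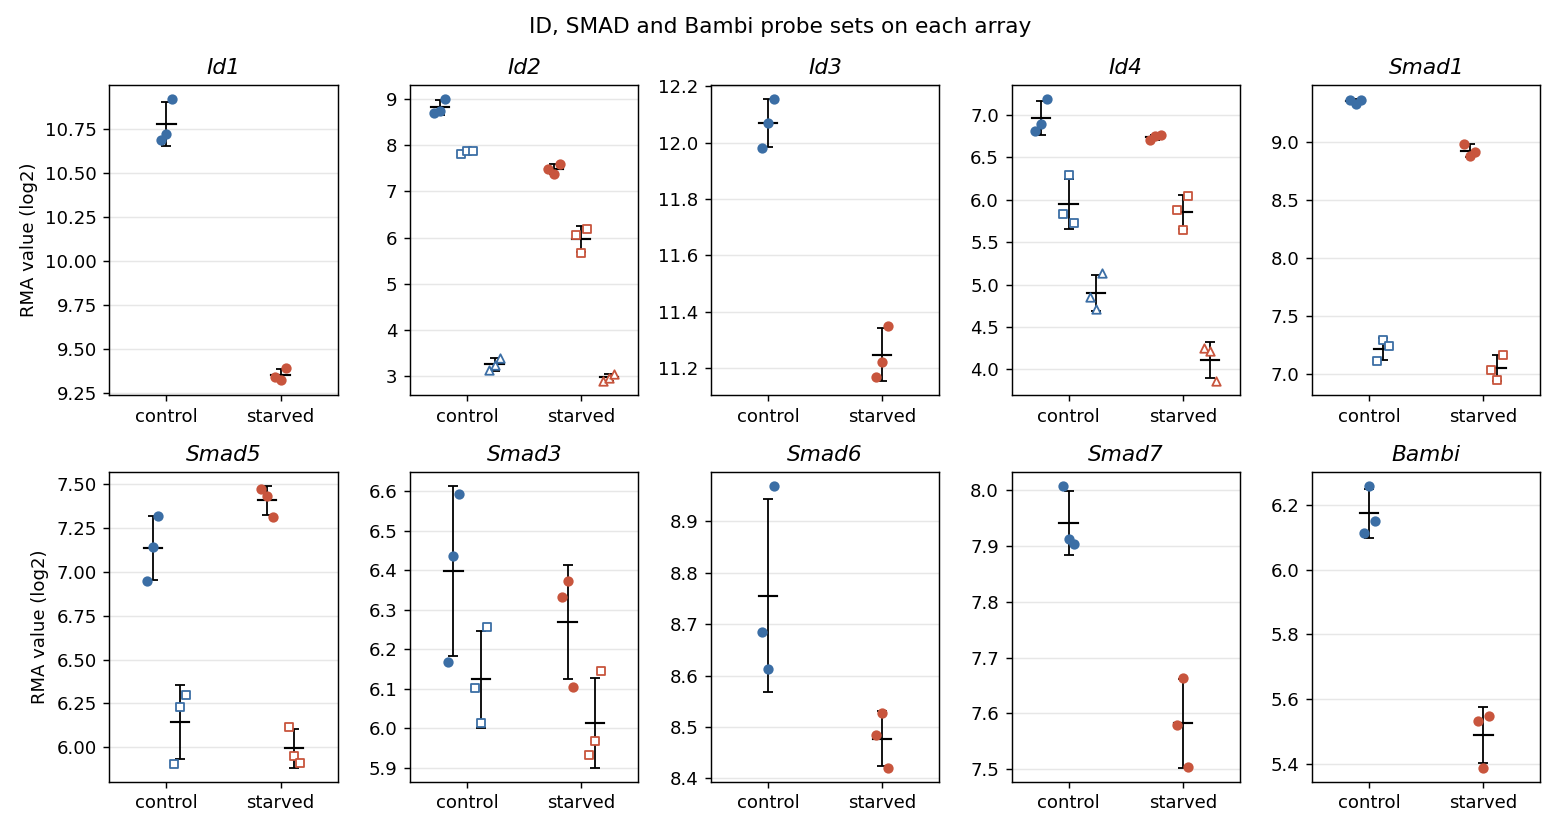
Deposited log2 values of every ID, SMAD and Bambi probe set on the 3 control (blue) and 3 starved (red) arrays, 1 panel per gene with its own vertical axis. Filled symbols mark the brightest probe set of the gene, open symbols the others, and black bars the mean ± SD (n = 3). For Id1, Id2, Id3, Id4, Smad1, Smad6, Smad7 and Bambi the filled starved points all lie below the filled control points. The filled probe set of Id4 was not called.

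Id1 had the largest fall of the 10 genes by brightest probe sets. ID1 is the ID protein most widely used as a reporter of BMP signalling. Its single probe set (1425895_a_at) read 10.68, 10.72 and 10.92 on control arrays 1, 2 and 3 and 9.34, 9.32 and 9.39 on starved arrays 1, 2 and 3. The groups lay far apart and control array 3 was the highest. The mean went from 10.77 ± 0.13 (SD, n = 3) to 9.35 ± 0.03 (SD, n = 3), a change of -1.42 ± 0.07 (SE), or 2.68-fold lower (limma adjusted p = 7.18e-06). Only 0.549% of the 12393 genes had a larger fall.

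Id2, whose product restrains E proteins in many lineages and also binds the retinoblastoma protein, fell in all 3 of its probe sets. The brightest (1422537_a_at) read 8.70, 8.75 and 9.00 in control and 7.49, 7.38 and 7.59 in starved cells. The second (1435176_a_at) read 7.81, 7.87 and 7.88 in control and 6.05, 5.66 and 6.19 in starved cells. In both, the groups were separated by more than 1 log2 unit, and starved array 2 was the lowest. Their changes were -1.33 ± 0.09 (2.52-fold lower, limma adjusted p = 2.88e-05) and -1.89 ± 0.12 (3.69-fold lower, adjusted p = 2.14e-05). The third probe set (1453596_at) averaged only 3.25 ± 0.13 (SD) on control and 2.97 ± 0.07 (SD) on starved arrays, under the log2 level of 5 taken here as the limit for dim probe sets. Its change was -0.28 ± 0.08 (adjusted p = 0.0240), and the call was lost without control array 2 or 3 or starved array 1 or 2 (adjusted p = 0.0533, 0.0582, 0.0795 and 0.0645) and without moderation (0.0829).

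Id3, a close relative of Id1 that BMPs and serum both induce, read 11.98, 12.07 and 12.15 in control and 11.17, 11.22 and 11.35 in starved cells (1416630_at). The groups did not overlap. The change was -0.82 ± 0.07, or 1.77-fold lower (limma adjusted p = 7.93e-05), and 2.53% of all genes had a larger fall.

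Id4, which encodes the ID protein best known from neural and mammary cells, gave no single answer. Its brightest probe set (1423259_at) read 6.81, 6.90 and 7.19 in control and 6.70, 6.75 and 6.76 in starved cells. The groups did not overlap, but the gap between them was small and control array 3 stood above the rest. The change of -0.23 ± 0.10 did not pass (limma adjusted p = 0.100, 95% confidence interval -0.45 to -0.01). A second probe set (1423260_at) read 5.83, 6.29 and 5.73 in control and 5.87, 5.64 and 6.04 in starved cells, with overlapping groups and a difference of -0.10 ± 0.16 (adjusted p = 0.678). The third and dimmest (1450928_at) read 4.85, 4.71 and 5.14 in control and 4.25, 4.22 and 3.87 in starved cells, mostly under the level of 5. It was called lower (-0.79 ± 0.13, adjusted p = 0.00222). The mean of the 3 probe sets also passed in a fit over gene means (-0.37, adjusted p = 0.00167), and the brightest passed without control array 1 (adjusted p = 0.0477), while without control array 3 its difference was -0.12.

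**Figure D2:**
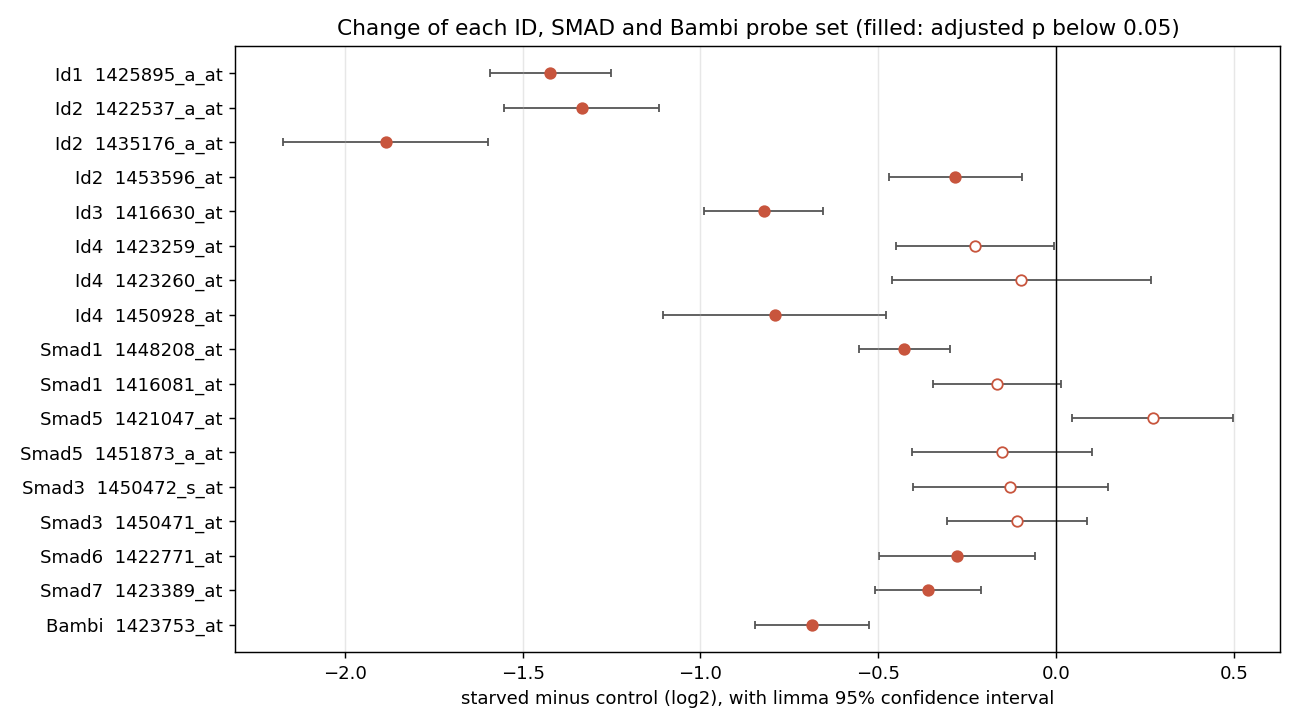
Log2 change of each of the 17 probe sets (starved less control) and its limma 95% confidence interval. Filled points passed an adjusted p of 0.05. Changes run from -1.89 in the second Id2 probe set to 0.27 in the brighter Smad5 probe set, and the only point right of 0 is that of Smad5.

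Promoter sequence was looked up for the 10 genes in a RefSeq table of windows of 300 bases (250 before and 50 from the transcription start, build GRCm38.p6), which matched 7 of them with 9 windows. Those of Id2, Id3 and Id4 are shown because these are the Id genes with a window in the table. The capitals mark matches, on either strand, to motifs known to bind SMADs. These are GGCGCC (a GC-rich site preferred by BMP SMADs), CAGAC or its reverse complement GTCTG, and the palindrome GTCTAGAC. CAGAC is the core of the longer CAGA box bound by SMAD3 and SMAD4, and matches to this core are called CAGA boxes below. The E-box CANNTG, bound by the E proteins that IDs hold back, was searched too and is left in lower case. The motifs were chosen after the windows had been seen.
Id2, chr12:25096043-25096342, minus strand: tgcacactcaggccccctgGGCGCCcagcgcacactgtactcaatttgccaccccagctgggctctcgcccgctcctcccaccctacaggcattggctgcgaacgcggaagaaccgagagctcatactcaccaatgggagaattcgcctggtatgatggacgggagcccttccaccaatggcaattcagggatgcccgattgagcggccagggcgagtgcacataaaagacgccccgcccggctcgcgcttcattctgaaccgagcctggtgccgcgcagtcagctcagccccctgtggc
Id3, chr4:136143572-136143871, plus strand: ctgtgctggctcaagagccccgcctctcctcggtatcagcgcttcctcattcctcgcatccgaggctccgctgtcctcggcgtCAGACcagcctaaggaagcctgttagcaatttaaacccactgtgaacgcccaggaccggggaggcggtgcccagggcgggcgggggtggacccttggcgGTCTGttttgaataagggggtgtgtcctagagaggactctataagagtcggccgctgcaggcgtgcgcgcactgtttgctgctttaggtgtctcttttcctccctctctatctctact
Id4, chr13:48260866-48261165, plus strand: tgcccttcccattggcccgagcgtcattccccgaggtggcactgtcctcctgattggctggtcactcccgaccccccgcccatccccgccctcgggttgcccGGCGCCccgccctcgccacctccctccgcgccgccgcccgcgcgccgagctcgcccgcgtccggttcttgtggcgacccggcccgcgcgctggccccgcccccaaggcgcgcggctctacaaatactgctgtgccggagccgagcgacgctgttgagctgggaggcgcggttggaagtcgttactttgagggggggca

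The Id2 and Id4 windows each hold 1 GGCGCC, which begins at -231 in Id2 and at -148 in Id4 with the start counted as 0. Id3 holds 2 CAGA boxes, at -167 and -68, and no GGCGCC. Id2 has 1 E-box at -196, while Id3 and Id4 have 0 in these windows. Of all 32851 windows of the table, 11.9% hold GGCGCC, 49.6% a CAGA box and 72.3% an E-box, and 0 matches in the windows of the 7 genes overlap each other. Among the 7 genes, GGCGCC was matched in windows of Id2, Id4 and Smad5. Whether a match goes with a change was not tested.

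Among the SMADs that BMP receptors act on, Smad1 fell and Smad5 did not pass. Smad1 in its brighter probe set (1448208_at) read 9.36, 9.33 and 9.37 in control and 8.99, 8.88 and 8.92 in starved cells. The arrays within a group lay close together, and the groups did not overlap. The change was -0.43 ± 0.06, or 1.34-fold lower (limma adjusted p = 0.000551). The dimmer Smad1 probe set (1416081_at) had means of 7.22 ± 0.09 (SD) and 7.05 ± 0.11 (SD), overlapping groups and a difference of -0.17 ± 0.08 that did not pass (adjusted p = 0.136, 95% confidence interval -0.35 to 0.02).

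Smad5 showed opposite signs in its probe sets. The brighter (1421047_at) read 6.95, 7.14 and 7.32 in control and 7.47, 7.44 and 7.31 in starved cells, a difference of 0.27 ± 0.10 (limma adjusted p = 0.0590, 95% confidence interval 0.05 to 0.50). Control array 3 overlapped the starved arrays, and without it the probe set was called higher (0.36, adjusted p = 0.0163). It was also called higher without dim probe sets (0.0337), with an intensity trend and robust moderation (0.0165) and with array weights (0.0418). The dimmer (1451873_a_at) differed by -0.15 ± 0.11 (adjusted p = 0.327), and without control array 1 it was called lower (-0.27, adjusted p = 0.0426). The gene has no settled direction here.

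Smad3 carries the TGF-beta and activin signal. Its brighter probe set (1450472_s_at) read 6.17, 6.44 and 6.59 in control and 6.33, 6.37 and 6.10 in starved cells, with partly overlapping groups: starved array 3 was the lowest of all, and control arrays 2 and 3 lay above every starved array. The difference was -0.13 ± 0.12 (limma adjusted p = 0.445, 95% confidence interval -0.40 to 0.15). The other (1450471_at) differed by -0.11 ± 0.09 (adjusted p = 0.364, 95% confidence interval -0.31 to 0.09). On leaving out single arrays the brighter ranged from -0.245 (without control array 1) to -0.032 (without control array 3) and the other from -0.174 (without starved array 3) to -0.044 (without control array 3), and neither passed. Smad3 and the inhibitory gene Smad6 are neighbouring protein-coding genes on chromosome 9 in GRCm38.p6.

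The inhibitors were lower, though Smad6, described last, passed only narrowly. Smad7, which blocks type I receptors of TGF-beta and BMPs and recruits ubiquitin ligases to them, read 8.01, 7.91 and 7.90 in control and 7.58, 7.66 and 7.50 in starved cells (1423389_at). The groups did not overlap, and the change was -0.36 ± 0.06, or 1.28-fold lower (limma adjusted p = 0.00287). Bambi, a receptor-like protein without a kinase domain that competes with type I receptors, read 6.11, 6.26 and 6.15 in control and 5.53, 5.39 and 5.55 in starved cells (1423753_at). It had the largest change outside the Id genes, -0.69 ± 0.07 or 1.61-fold lower (adjusted p = 0.000157), and 3.70% of all genes had a larger fall.

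Smad6, which preferentially restrains BMP signalling, was close to the threshold. It read 8.68, 8.61 and 8.97 in control and 8.48, 8.53 and 8.42 in starved cells (1422771_at). The groups did not overlap, but the lowest control array lay only just above the highest starved array and control array 3 stood above the other control arrays. The change was -0.28 ± 0.09, or 1.21-fold lower (limma adjusted p = 0.0498). The call held without control array 2 and was lost without any other single array (adjusted p from 0.0685 to 0.132), and without control array 3 the change was -0.17 (adjusted p = 0.0821). It was also lost with the replicate number as a block (0.0806), with array weights (0.0554), without moderation (0.149) and when probe sets with a lettered suffix were left out (0.0534).

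**Figure D3:**
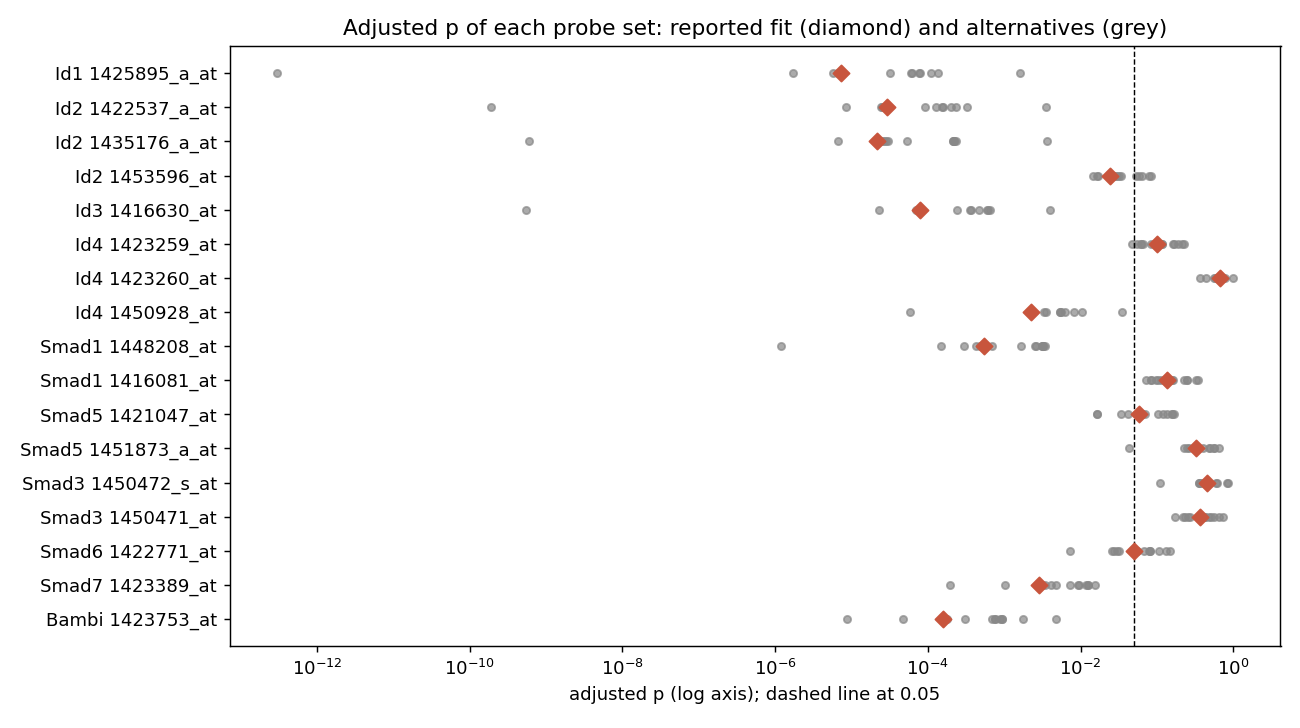
Adjusted p of each of the 17 probe sets on a log axis, in the reported fit (red diamond) and under the alternative settings (grey points), with the threshold of 0.05 as a dashed line. All points of Id1, Id3, Smad7 and Bambi, of both brighter Id2 probe sets and of the brighter Smad1 probe set lie left of the line, while those of Smad6 lie on both sides of it.

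The Smad6 window is shown because it is the only one of the 9 that holds the palindrome GTCTAGAC, found in 0.213% of all windows of the table. Motif and window were both picked after the windows had been seen, so that share does not measure how unusual the match is. The capitals mark the palindrome.
Smad6, chr9:64022010-64022309, minus strand: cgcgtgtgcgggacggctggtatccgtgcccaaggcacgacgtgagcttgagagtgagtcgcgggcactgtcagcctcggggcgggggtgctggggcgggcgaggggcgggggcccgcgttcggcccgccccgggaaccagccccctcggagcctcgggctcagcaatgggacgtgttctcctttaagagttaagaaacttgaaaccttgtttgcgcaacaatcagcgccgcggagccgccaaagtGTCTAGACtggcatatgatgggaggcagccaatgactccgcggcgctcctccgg
The palindrome spans -4 to 3 around the annotated start, and an E-box follows at 7. The windows of Smad1 and Smad3 hold 0 of the 4 motifs. Smad5 has 3 windows at alternative starts, of which the first 2 overlap and share 1 GGCGCC and 1 E-box, and the third holds 1 CAGA box. Motif matches are letters in a window, and binding was not measured.

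**Figure D4:**
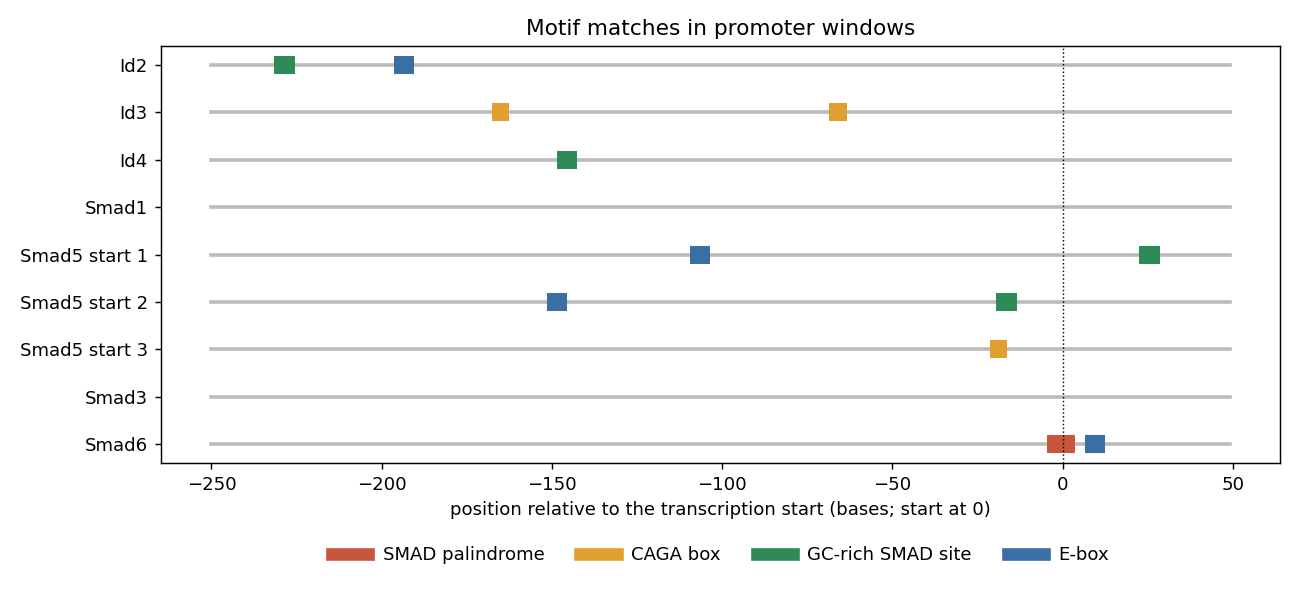
Positions of the searched motifs in the 9 promoter windows of 7 of the genes, in bases from the annotated transcription start at 0. Grey lines are the windows and coloured blocks the matches: the SMAD palindrome lies in the Smad6 window, the GC-rich site in those of Id2, Id4 and Smad5, and CAGA boxes in those of Id3 and Smad5.

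Across arrays, control array 3 held the highest control value in 13 of the 17 probe sets, several of which share a gene. The same count over all probe sets was not made. Without control array 3, 9 of the 17 probe sets were called, 8 lower and 1 higher, against 10 lower with all arrays. Among all 22626 probe sets, 3965 were called lower and 4429 higher without that array, against 4344 and 4589 with all arrays. Id1, Id3 and both brighter Id2 probe sets were still called lower without it, while the dimmest Id2 probe set was not. For 11 of the 17 probe sets all 3 starved arrays lay below all 3 control arrays, as they did for 25.0% of all probe sets, and for 0 they lay above, beside 25.4%. By the distance between 6 array values, each gene centred on its own mean, the genes nearest to Id1 were Gsta4 (distance 0.123, change -1.43 ± 0.07), Srsf2 (0.129, -1.38 ± 0.06) and Id2 (0.159). Nearest to Bambi were Runx1 (0.0623, -0.68 ± 0.06), Trmt10c (0.0837, -0.68 ± 0.08) and Nip7 (0.0858, -0.74 ± 0.06). With 2 groups of 3 arrays this distance mostly ranks genes by the size of their change.

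The rest of the pathway was read from 8 gene lists, of which 140 different genes were measured. Of these 34 were higher and 31 lower (24.3% and 22.1%, beside 20.8% and 20.1% of all genes), with a median change of 0.02. Smad4, Smad2 and Smad9, the SMAD genes outside the 10, were singled out after their values were seen. Smad4, the partner shared by all receptor-regulated SMADs, rose by 0.40 ± 0.06 (limma adjusted p = 0.000871), from 10.49 ± 0.02 (SD) to 10.89 ± 0.06 (SD). Smad2 differed by -0.17 ± 0.08 (adjusted p = 0.110), and Smad9 lay under the level of 5 in both groups and differed by 0.22 ± 0.12 (adjusted p = 0.177).

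Among 11 measured BMP ligand genes, 1 rose and 1 fell (median -0.10), and 5 lay under 5 in both groups. Bmp4, a ligand that induces Id genes in many cells, rose by 0.56 ± 0.06, from 9.96 ± 0.08 (SD) to 10.52 ± 0.03 (SD). Bmp1, which despite its name is a procollagen protease, fell by 0.37 ± 0.07. Bmp8a (-0.21 ± 0.13) and Gdf9 (0.03 ± 0.08) did not pass. Of 12 genes for TGF-beta and activin ligands and their latency proteins, 4 rose and 2 fell (median 0.08). Inhba, the activin A subunit gene, rose by 0.72 ± 0.08, Tgfb1 by 0.65 ± 0.07 and the matrix protein gene Ltbp2 by 0.59 ± 0.07, while Tgfb2 fell by 0.41 ± 0.08. Tgfb3 (-0.13 ± 0.05) and Ltbp1 (-0.06 ± 0.05) did not pass.

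Of 14 genes for receptors and co-receptors, 8 were called lower and 2 higher (median -0.20). 1 of the 8, the type II TGF-beta receptor gene Tgfbr2, had conflicting probe sets: the brightest of its 3 fell by 0.27 ± 0.05 and another was called higher (0.44 ± 0.06), and the mean of the 3 was 0.03 (limma adjusted p = 0.683). Tgfbr1, the type I TGF-beta receptor gene, fell by 0.83 ± 0.07 and by 0.39 in the mean of its probe sets, and the activin receptor gene Acvr1b fell by 0.47 ± 0.06. The BMP type I receptor genes Bmpr1a (-0.26 ± 0.05) and Acvr1 (-0.35 ± 0.06), singled out after their values were seen, fell as well, the latter by 0.16 in the mean of its probe sets. Acvrl1 (0.50 ± 0.07) and the co-receptor gene Eng (0.44 ± 0.06, or 0.25 in the mean of its probe sets) rose. Acvrl1 lay under the dim limit in both groups (means of 4.31 and 4.81). Both are best known from endothelium. Of 10 endothelial markers 9 lay under 5 in both groups, Cdh5 at 4.24 and 4.23 and Kdr at 4.70 and 4.73, and 1 (Pecam1, 3.40 to 3.63) was called higher, a call lost without control array 1 or 3 or starved array 2 or 3 (limma adjusted p from 0.0837 to 0.124). Array means of that list were 4.03 to 4.18 in control and 4.02 to 4.24 in starved cells. The BMP type II receptor gene Bmpr2 (-0.05 ± 0.09) and Acvr2b (0.15 ± 0.11) did not pass.

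Extracellular antagonists included the largest rises of the 8 lists. Of 14 measured, 2 rose and 2 fell (median 0.04). Fst, which encodes the activin and BMP trap follistatin, went from 7.35 ± 0.14 (SD) to 9.31 ± 0.09 (SD), a rise of 1.96 ± 0.08 or 3.89-fold (limma adjusted p = 3.90e-06). Tmeff2, a membrane protein gene with follistatin-like domains, rose by 2.41 ± 0.08. Its relative Tmeff1 fell by 0.46 ± 0.07. The BMP antagonist gene Grem1 fell by 0.37 ± 0.10 (adjusted p = 0.0167), a call lost without control array 2 or starved array 1 or 2 (0.0525, 0.0566 and 0.0576) and without moderation (0.083). Fstl1 (-0.10 ± 0.05) and Twsg1 (0.08 ± 0.06) did not pass.

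**Figure D5:**
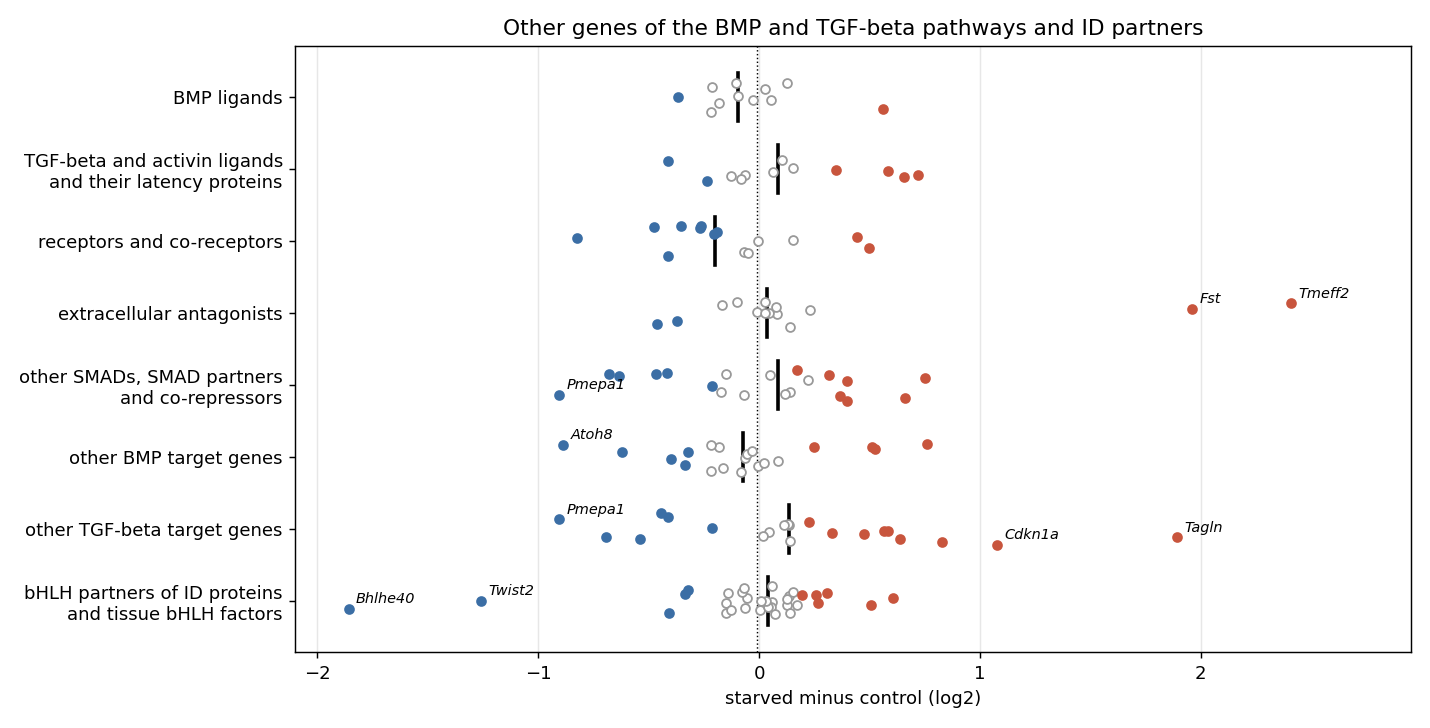
Log2 change (starved less control) of each measured gene of 8 pathway lists, by its brightest probe set. Red points were called higher, blue points lower and open points did not pass; black bars are list medians and the dotted line is the median of all genes (-0.01). Receptors have 8 blue and 2 red points, and Fst and Tmeff2 lie far to the right among the antagonists.

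Of 20 genes for other SMADs, SMAD partners and co-repressors, 7 rose and 6 fell (median 0.08). The co-repressor gene Tgif1 rose by 0.75 ± 0.05. Pmepa1, a TGF-beta target whose product limits receptor-regulated SMADs, fell by 0.90 ± 0.09. Ppm1a, a phosphatase gene, rose by 0.66 ± 0.06 in its brightest probe set, but of its 4 probe sets 2 were called higher and 1 lower, and their mean missed the threshold (0.06, limma adjusted p = 0.469). Runx1, whose product partners SMADs, fell by 0.68 ± 0.06 in its brightest probe set, and of its 5 probe sets 2 were called lower and 1 higher, with a mean of -0.16. Tob1 (0.14 ± 0.08) and Trim33 (0.12 ± 0.08) did not pass.

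Of 20 other BMP target genes, 5 fell and 4 rose (median -0.07), and 8 lay under 5 in both groups. Atoh8 fell by 0.89 ± 0.07 and Gata2 by 0.62 ± 0.07. Gata3 rose by 0.76 ± 0.12 and the Notch and BMP target gene Hey2 by 0.53 ± 0.06. Both control means lay under the dim limit (4.97 for Gata3 and 2.88 for Hey2), and Hey2 stayed under it in starved cells (3.41). Gata6 (-0.18 ± 0.07) and Msx1 (-0.22 ± 0.11) did not pass. Of 21 other TGF-beta targets 9 rose and 6 fell (median 0.13). The smooth muscle gene Tagln rose by 1.89 ± 0.08, Cdkn1a, which encodes a cyclin-dependent kinase inhibitor, by 1.08 ± 0.05 and the protease inhibitor gene Timp1 by 0.83 ± 0.05, whereas Pmepa1 is among those that fell. Col1a2 (0.14 ± 0.05) and Lox (0.13 ± 0.05) did not pass.

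ID proteins act through other transcription factors, and 33 genes of such partners and of tissue-restricted bHLH factors were measured. Of these 6 rose and 5 fell (median 0.04), and 17 lay under 5 in both groups. Of the E protein genes, Tcf4 (-0.13 ± 0.06) and Tcf3 (0.01 ± 0.05) did not pass. Tcf12, singled out with Tcf3 after their values were seen, rose by 0.19 ± 0.06 (limma adjusted p = 0.0260), a call lost without control array 1 or 3 or starved array 1 or 3 (0.0615, 0.0701, 0.0737 and 0.08) and with the replicate block (0.0650). Its other probe set was called higher too (0.33 ± 0.05). Twist2, a bHLH factor of mesenchymal cells, fell by 1.26 ± 0.06, from 10.24 ± 0.07 (SD) to 8.98 ± 0.02 (SD). Bhlhe40, a bHLH repressor gene, fell by 1.86 ± 0.11, the largest fall of the 8 lists. The tendon bHLH gene Scx rose by 0.61 ± 0.10 and the ETS factor gene Elk4 by 0.51 ± 0.06, of which Elk4 missed the threshold in the mean over its probe sets (0.16, limma adjusted p = 0.0916). Ets2 (0.13 ± 0.06) did not pass.

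The protocols name fibroblasts, and fibroblast markers were bright in both groups. The array means of 11 such genes were 11.64 to 11.66 in control and 11.50 to 11.53 in starved cells, with 4 called higher and 4 lower, and Thy1 alone lay under 5 in both groups. Lum, which encodes the matrix proteoglycan lumican, fell from 9.76 to 7.71 (-2.05 ± 0.06, 4.13-fold lower, limma adjusted p = 1.57e-06), further than the brightest probe set of any of the 10 genes. The growth factor receptor gene Pdgfrb fell by 0.81 ± 0.07, while the collagen genes Col1a1 and Col5a1 rose by 0.57 ± 0.06 and 0.48 ± 0.05. These markers moved in both directions, and whether they bear on the falls of the Id genes was not tested. Epithelial markers lay at array means of 4.29 to 4.46 and 4.47 to 4.50, skeletal muscle markers at 4.70 to 4.80 and 4.77 to 4.89, neural and glial markers at 4.69 to 4.81 and 4.94 to 5.01, and leukocyte markers at 4.96 to 5.17 and 5.05 to 5.10. Of these 4 lists, 6 of 8, 4 of 8, 3 of 7 and 4 of 7 genes lay under 5 in both groups, and 1, 1, 2 and 2 genes were called higher and 0, 0, 0 and 1 lower. Those called higher were Cdh1 (0.50 ± 0.08, under 5 in both groups), Acta1 (0.71 ± 0.20), Map2 (0.74 ± 0.09), Tubb3 (0.46 ± 0.09), Cd68 (0.43 ± 0.06) and Lyz2 (0.24 ± 0.08), and Cd14 was lower (-0.32 ± 0.06). The leukocyte markers above 5 in both groups were Cd14 (8.34 in control, 8.02 in starved cells), Cd68 (6.25 and 6.68) and Lyz2 (6.07 and 6.31). The calls of Acta1 and Lyz2 were each lost on leaving out any of 4 single arrays, control arrays 1 and 3 and starved arrays 1 and 3 for Acta1 (limma adjusted p from 0.0596 to 0.0858) and control arrays 2 and 3 and starved arrays 1 and 3 for Lyz2 (0.0609 to 0.114). The part of other cells in the changes above was not tested.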

How the data were processed

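The deposited table holds log2 values of 22690 probe sets on 6 arrays. Per the submitters' processing notes the authors used affy and RMA, with no version or build stated. RMA subtracts background, quantile normalizes and combines probes, which hides a shift shared by most transcripts; medians of the arrays were 6.74 to 6.78. 64 control probe sets were set aside. Gene names are those of the platform annotation (20380 probe sets name 1 gene, 691 several, 1555 none here), and a check through Entrez identifiers changed 0 symbols.

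Groups follow the titles. All 22626 probe sets were fitted with lmFit and eBayes of limma 3.58.1 (R 4.3.3; two-sided, no covariate) with Benjamini-Hochberg adjustment. The same fit was run on simulated data with independent noise and few changed probe sets, as a check of the code only. Figures used matplotlib 3.10.9 and Python 3.11.15. Members and lists were chosen with earlier results of these data known. Named genes are all 10 members, per pathway list up to 4 called genes of largest change and 2 others of highest level, and the 3 nearest patterns to 2 members; single cell type markers and other genes named were picked after their values were seen. Alternatives were a dim filter, renormalization, centring, other moderation, array weights, leaving out probe sets with a lettered suffix, gene means, a replicate block, a threshold of 0.01 and leaving out each array. Promoter windows are RefSeq's, build GRCm38.p6. Batches were not recorded in what was used, and a batch matching the groups could not be told apart from starvation.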

Additional observations from a re-analysis of the deposited data

How the results depend on the processing

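Leaving out each array in turn gave 7691 to 8394 called probe sets (8933 with all arrays), 8 to 11 of the 17 member probe sets, 6 to 7 of the 10 member genes and 56 to 61 of the 140 pathway genes. Without probe sets that have a letter before the _at of their name (_a_at sets match several transcripts of 1 gene, _s_at and _x_at sets can match other genes), 5716 of 15605 probe sets were called and 6 of the 12 member probe sets left; that setting removes the Id1 probe set and both brighter Id2 probe sets. Id1, Id3, Smad7, Bambi, the brighter Id2 pair, the dimmest Id4 and the brighter Smad1 probe sets kept their calls under every alternative in which they were tested. The second Id4 probe set (-0.10) ranged from -0.209 to 0.073 on leaving out each array; it turned positive without control replicate 2 (0.073) and without starved replicate 2 (0.007), never passing. At a threshold of 0.01, 6252 of all 22626 probe sets were called, 3270 higher and 2982 lower. Of the members, 8 of the 17 probe sets and 6 of the 10 genes were then called, all of them lower. Among pathway genes 51 were called (65 at 0.05). The third Id2 probe set, Smad6 and, among the other genes named as changed, Grem1, Tcf12, Pecam1, Acta1 and Lyz2 lost their calls. Without moderation Pecam1 (0.0997), Acta1 (0.135) and Lyz2 (0.106) also lost theirs, as did Pecam1 (0.0680) and Lyz2 (0.0635) with centring on array medians, Pecam1 with an intensity trend (0.0753) and Lyz2 with array weights (0.0505). Averaged over its probe sets Tgfbr2 turned positive (0.028, not passing at 0.683). With the replicate number as a block 8168 probe sets, 9 member probe sets, 6 member genes and 61 pathway genes were called; among members the block changed the call of Smad6 alone, and among the other genes named as changed that of Tcf12 alone. Deviations of same-numbered arrays correlated at -0.09, 0.02 and -0.01, and the numbers were not taken as pairs. Precision is limited by the number of arrays and, for dim probe sets, by nearness to background.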
